A study of Mus musculus with 8 samples.

Results

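The 10 genes described here serve to recognise group 2 innate lymphoid cells and Th2 cells. They were taken from a list of symbols, namely Klrg1, Il7r, Il2ra, Gata3, Rora, Thy1, Il17rb, Il5, Bcl11b and Id2, and all were found by symbol among the 49315 genes of the count table. PolyA-selected RNA of whole esophagus was sequenced in 4 EoE33 mice, which carry a transgene for IL-33, and in 4 wild type littermates. All 8 mice were males aged 8 weeks of the C57BL/6J strain, and the labels name no treatment. The promoter that drives the transgene is not given in the sources used here. The comparison asked how transcripts of the esophagus differ when IL-33 is overexpressed.

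Group 2 innate lymphoid cells (ILC2) and Th2 cells are lymphocytes of type 2 immunity, the form of immunity seen in allergy and worm infection. ILC2 carry no antigen receptor and respond to cytokines released by epithelium, among them IL-33, which binds ST2 (encoded by Il1rl1), IL-25, which binds IL17RB, and TSLP, which binds a receptor built from CRLF2 and the IL-7 receptor chain. The transcription factors GATA3, RORα, BCL11B and the inhibitor ID2 are needed for ILC2 to form or to keep their identity, and activated cells secrete IL-5 and IL-13. Several of these genes are also used outside lymphocytes: Rora in muscle and epithelium, Thy1 in neurons and fibroblasts, Bcl11b in keratinocytes and neurons, and Id2 in many tissues.

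The libraries held 17.73 to 24.07 times 1e6 counts, and levels are given as counts per 1e6 counts of the scaled library (CPM). Il33 itself lay between 99.7 and 165 CPM in the wild type libraries and between 354 and 393 CPM in the EoE33 libraries. Within wild type, replicate 3 stood apart by 350.0 CPM of Scgb1a1, an airway transcript (5.43 to 5.89 in the other 3), replicate 1 by 91.1 CPM of Alb, a liver transcript (3.21 to 6.89 in the other 3), and replicate 4 was the highest wild type library for 17 of 18 T cell markers. Results that rest on one of these libraries are given with and without it.

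All 10 genes had enough counts to be tested, and they moved in both directions. In the edgeR quasi-likelihood test, Klrg1, Il7r, Il17rb and Bcl11b rose in EoE33, Rora and Thy1 fell, and Il2ra, Gata3, Il5 and Id2 did not pass an adjusted p of 0.05. Of all 16760 genes tested, 63.4% were called (31.3% higher and 32.1% lower), so that 6 calls among 10 genes is near the background. The counts of calls in the lists below are to be read beside the same shares. The median log2 fold change was 0.55 over the 10 genes and −0.01 over all genes tested. The groups did not overlap for 7 of the 10 genes, 5 above and 2 below wild type, against 59.4% of all genes tested (29.6% above and 29.8% below). A change of at least 1 on the log2 scale was called for Klrg1, Il7r, Il17rb and Rora, 4 of 10 genes, against 27.2% of all genes tested (12.3% higher and 14.9% lower). Leaving out wild type replicate 4 raised the count of higher genes from 4 to 6, and it stayed at 4 when any other library was left out. In bulk tissue a change in the number of cells of a type and a change in RNA per cell cannot be told apart, and this holds for each value below.

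**Figure D1:**
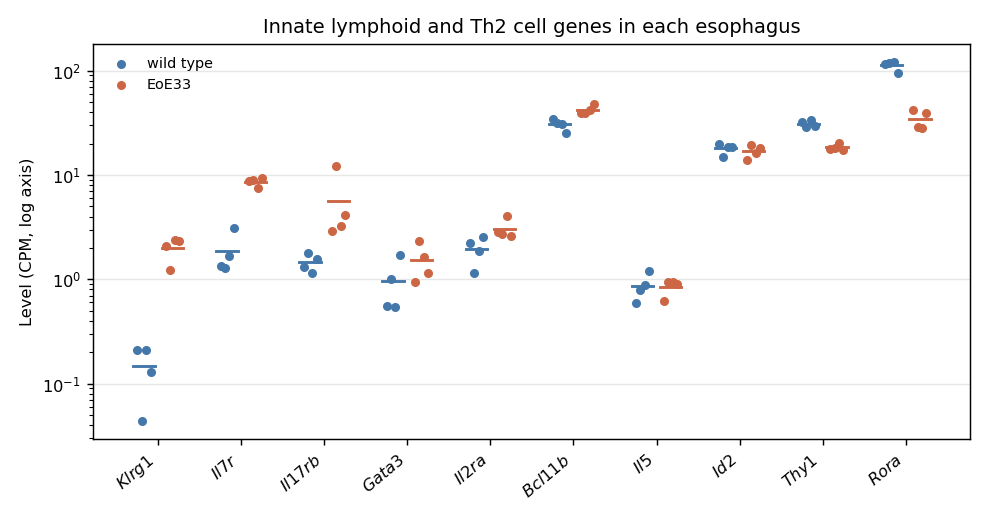
Levels of the 10 genes in each library, in CPM on a log axis, with 1 point per mouse and a line at each group mean, n = 4 per group. The EoE33 points of Klrg1 (1.23 to 2.37 CPM) and Il7r (7.54 to 9.33 CPM) lie above all wild type points, those of Rora (28.3 to 42.3 CPM) and Thy1 (17.5 to 20.2 CPM) below, and those of Gata3, Il5 and Id2 overlap wild type.

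The surface receptors held the largest rise. Klrg1, which encodes an inhibitory receptor of mature ILC2 and of differentiated T and NK cells that binds cadherins, lies at chr6:122270596-122282882 on the minus strand (GRCm38). It had 5, 1, 5 and 3 counts in wild type replicates 1 to 4, and 44, 21, 55 and 47 in EoE33 replicates 1 to 4. In CPM these were 0.212, 0.0439, 0.211 and 0.128 in wild type and 2.10, 1.23, 2.37 and 2.34 in EoE33. Every EoE33 library lay above every wild type library, and the wild type libraries were close to the level of 3 counts, 0.127 to 0.132 CPM there. The mean rose from 0.149 ± 0.0802 to 2.01 ± 0.536 CPM (SD, n = 4 each), a log2 fold change of 3.70 with an SE of 0.40 (edgeR, adjusted p = 4.49e-05), or 13-fold with a 95% interval of 7.02 to 24.2. Without one library at a time the log2 fold change lay between 3.43 and 3.91. Among the known ligands of KLRG1, E-cadherin is made by epithelium, and Cdh1 rose from 247 ± 24.6 to 650 ± 34.0 CPM (log2 fold change 1.39, edgeR adjusted p = 2.42e-06). N-cadherin, encoded by Cdh2, fell from 3.20 ± 0.707 to 2.00 ± 0.126 CPM (log2 fold change −0.68, edgeR adjusted p = 0.0123), but did not pass with wild type replicates 2 and 4 as the only controls (−0.46, adjusted p = 0.121). Receptor and epithelial ligand transcripts were thus both higher in EoE33.

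Il7r, the chain shared by the receptors for IL-7 and TSLP, lies at chr15:9505788-9530176 on the minus strand. Its level was 1.36, 1.27, 1.69 and 3.08 CPM in wild type replicates 1 to 4 and 8.73, 9.06, 7.54 and 9.33 CPM in EoE33 replicates 1 to 4. The groups were far apart, and wild type replicate 4 was the highest of its group. The mean rose from 1.85 ± 0.840 to 8.66 ± 0.787 CPM (SD, n = 4 each), a log2 fold change of 2.22 with an SE of 0.27, or 4.67-fold (edgeR, adjusted p = 9.36e-05). Crlf2, which completes the TSLP receptor, rose from 6.11 ± 0.879 to 13.6 ± 1.39 CPM (log2 fold change 1.16, edgeR adjusted p = 6.17e-05). The cytokines themselves did not pass: Tslp was at 0.835 ± 0.223 CPM in wild type against 0.910 ± 0.227 CPM in EoE33 (log2 fold change 0.12, edgeR adjusted p = 0.713), and Il7 at 1.23 ± 0.565 and 1.03 ± 0.268 CPM (log2 fold change −0.25, edgeR adjusted p = 0.568). Both signs turned when a library was left out: Tslp was at −0.06 without EoE33 replicate 1, and Il7 at 0.05 without wild type replicate 4. So both chains of the TSLP receptor were higher, while neither ligand transcript passed the test.

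Il17rb, the chain of the IL-25 receptor that binds the cytokine, lies at chr14:29996135-30008896 on the minus strand. Its level was 1.31, 1.80, 1.14 and 1.58 CPM in wild type replicates 1 to 4 and 2.91, 12.1, 3.23 and 4.14 CPM in EoE33 replicates 1 to 4. All EoE33 libraries lay above wild type, and replicate 2 was far above the other 3. The mean rose from 1.46 ± 0.291 to 5.59 ± 4.37 CPM (SD, n = 4 each), a log2 fold change of 1.93 with an SE of 0.48 (edgeR, adjusted p = 0.00692). Without EoE33 replicate 2 the log2 fold change was 1.23 (edgeR, adjusted p = 0.00165), and with only wild type replicates 2 and 4 as controls it was 1.71 and did not pass (edgeR, adjusted p = 0.0765). The same EoE33 library was also the highest for Il1rl1, the IL-33 receptor gene, at 34.8 CPM against 10.8 to 15.5 CPM in the other 3 EoE33 libraries. Il17ra, which pairs with IL17RB, rose from 17.5 ± 1.17 to 32.5 ± 5.20 CPM (log2 fold change 0.89, edgeR adjusted p = 0.000166). The ligand gene Il25 had 2 counts in all wild type libraries together and 2 in all EoE33 libraries, too few to test. The exons of Il17rb share 141 bases, 3.80% of their length, with Actr8 on the opposite strand, and Actr8 stood at 23.2 ± 2.70 CPM in wild type against 23.3 ± 1.93 CPM in EoE33.

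Il2ra, the IL-2 receptor α chain carried by ILC2, activated T cells and regulatory T cells, lies at chr2:11642807-11693193 on the plus strand. Its level was 2.25, 1.14, 1.86 and 2.57 CPM in wild type replicates 1 to 4 and 2.81, 2.75, 4.01 and 2.59 CPM in EoE33 replicates 1 to 4. The groups did not overlap, but by a narrow margin: the lowest EoE33 library was at 2.59 and the highest wild type library at 2.57 CPM. The log2 fold change of 0.64 (95% interval 0.04 to 1.24) did not pass in edgeR (adjusted p = 0.0595). The call was reached without wild type replicate 4 (0.80, edgeR adjusted p = 0.0353), with DESeq2 (0.66, adjusted p = 0.0460) and with limma-voom (0.68, adjusted p = 0.0450). Il2rg, the chain common to the receptors for IL-2, IL-7 and other cytokines, rose from 4.09 ± 2.45 to 9.90 ± 0.905 CPM (log2 fold change 1.27, edgeR adjusted p = 0.0195), a call that was lost without wild type replicate 1 (1.16, adjusted p = 0.0547), with no low-count filter (1.29, adjusted p = 0.0516) or with wild type replicates 2 and 4 as the only controls (1.18, adjusted p = 0.120). Il2rb, the β chain, was at 1.11 ± 0.987 and 2.77 ± 0.479 CPM (log2 fold change 1.31, edgeR adjusted p = 0.0649), and passed without wild type replicate 4 (2.04, adjusted p = 0.00521). Il2 itself, below the filter on low counts, had 1 count in the wild type group against 34 in EoE33, a depth-scaled ratio of 39.1 with an exact 95% interval of 6.55 to 1588 that covers counting error only.

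Of the 15 partner genes of the 10 (ligands, further receptor chains and E proteins), 13 were tested. Their median log2 fold change was 0.89, against −0.01 over all genes tested. Of the 13, 7 were higher and 2 lower, against 31.3% and 32.1% of all genes tested. Those higher were Crlf2, Il2rg, Il17ra, Cdh1, Il5ra, Csf2rb and Tcf3, and those lower were Cdh2 and Tcf4, with Tcf4 the only one lower when wild type replicates 2 and 4 were the only controls. Il7, Tslp, Il2rb and Tcf12 did not pass.

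**Figure D2:**
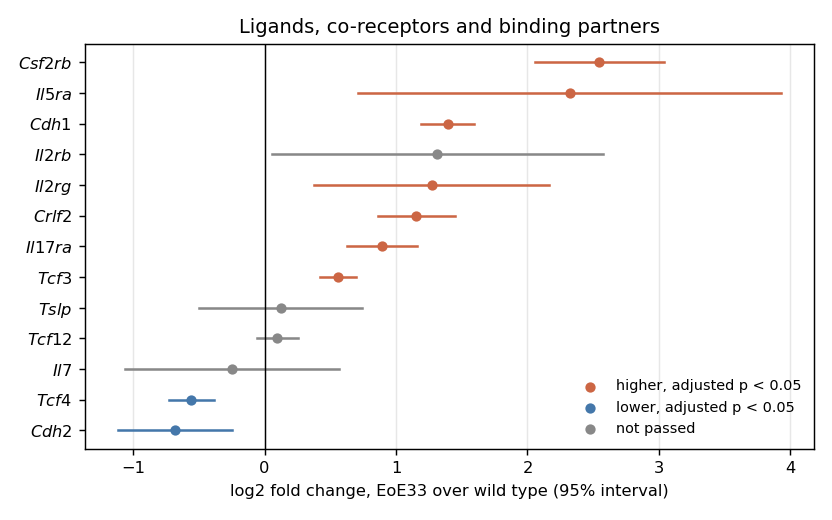
Log2 fold change (EoE33 over wild type, 4 mice each) of the 13 tested partner genes of the 10 genes, with bars for the 95% interval and colours for the call. Csf2rb (2.55) and Il5ra (2.32) lie farthest to the right, and Cdh2 (−0.68) and Tcf4 (−0.56) farthest to the left.

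Il5 encodes the cytokine that drives eosinophil growth and lies at chr11:53720794-53725106 on the plus strand. Its level was 0.593, 0.790, 0.887 and 1.20 CPM in wild type replicates 1 to 4 and 0.620, 0.935, 0.948 and 0.898 CPM in EoE33 replicates 1 to 4, from 81 counts in wild type and 69 in EoE33. The EoE33 values lay within the range of wild type. Means were 0.867 ± 0.252 and 0.850 ± 0.155 CPM (SD, n = 4 each), and the 95% interval of the log2 fold change of −0.03 ran from −0.65 to 0.59 (edgeR, adjusted p = 0.932). Its sign turned without wild type replicate 4 (0.16) or EoE33 replicate 1 (0.10). An annotated antisense gene, Gm12214, shares 417 bases with the exons of Il5, 27.1% of their length, and had 0 counts in all 8 libraries. Unlike the ligand, the receptor transcripts passed the test: Il5ra, the α chain found on eosinophils, rose from 0.382 ± 0.405 to 1.95 ± 0.782 CPM (log2 fold change 2.32, edgeR adjusted p = 0.0183, and 3.05 without wild type replicate 3). Csf2rb, the shared β chain, rose from 9.14 ± 3.02 to 53.4 ± 7.73 CPM (log2 fold change 2.55, edgeR adjusted p = 1.56e-05).

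Among the transcription factors, Gata3, the regulator of Th2 and ILC2 identity, lies at chr2:9857078-9890034 on the minus strand. Its level was 0.551, 1.01, 0.549 and 1.71 CPM in wild type replicates 1 to 4 and 0.954, 2.34, 1.64 and 1.15 CPM in EoE33 replicates 1 to 4. The groups overlapped, with wild type replicate 4 above 3 of the 4 EoE33 libraries. In log2 terms the fold change was 0.66, with a 95% interval of −0.31 to 1.63 (edgeR, adjusted p = 0.205), and it passed when wild type replicate 4 was left out (1.10, edgeR adjusted p = 0.0416). Exons of Gata3 share 155 bases with the antisense gene Gm13256 and 77 bases with 9230102O04Rik, which had 2 and 4 counts in all 8 libraries together. Of its paralogs, Gata6 fell from 5.87 ± 2.33 to 2.66 ± 0.383 CPM (log2 fold change −1.14, edgeR adjusted p = 0.00638). Gata4 fell as well (log2 fold change −1.78, edgeR adjusted p = 0.0204), but did not pass without wild type replicate 1 (−1.44, adjusted p = 0.0584), wild type replicate 4 (−1.52, adjusted p = 0.0529) or EoE33 replicate 1 (−1.60, adjusted p = 0.0544), with limma-voom (−1.52, adjusted p = 0.0654) or with wild type replicates 2 and 4 as the only controls (−1.65, adjusted p = 0.0612). Gata2 was at 5.22 ± 1.23 and 4.77 ± 1.32 CPM and did not pass (log2 fold change −0.12, edgeR adjusted p = 0.678), with a sign that turned without wild type replicate 4 (0.04) or EoE33 replicate 2 (0.06).

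Rora, the gene of the nuclear receptor RORα, on which ILC2 development depends, lies at chr9:68653786-69388246 on the plus strand. Its level was 115, 119, 121 and 95.6 CPM in wild type replicates 1 to 4 and 42.3, 29.0, 28.3 and 39.4 CPM in EoE33 replicates 1 to 4. All EoE33 libraries lay below wild type, opposite in direction to Klrg1 and Il7r. The mean fell from 113 ± 11.8 to 34.7 ± 7.14 CPM (SD, n = 4 each), a log2 fold change of −1.70 with an SE of 0.15, or 3.25-fold lower (edgeR, adjusted p = 1.38e-05). Skeletal muscle markers moved with Rora: 9 of 9 fell, and their summed level was 27741 to 30183 CPM in wild type and 7362 to 9897 CPM in EoE33. Per 1000 CPM of that sum, Rora stood at 3.45 to 4.22 CPM in wild type and 3.75 to 5.74 CPM in EoE33, so that the groups overlapped on this scale. Set against the fibroblast markers, it stood at 19.0 to 29.1 CPM in wild type and 8.56 to 18.6 CPM in EoE33 per 1000 CPM of their sum, without overlap. Per 1000 CPM of the suprabasal keratinocyte sum it stood at 1.16 to 1.51 CPM and 0.904 to 1.29 CPM, and per 1000 CPM of the neuron and Schwann cell sum at 1068 to 2091 CPM and 796 to 1192 CPM, so that the groups overlapped on both of these scales too. The part of these tissues in the fall of Rora was not tested.

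Bcl11b, a factor of T cell commitment and of ILC2 identity, lies at chr12:107910403-108003602 on the minus strand. Its level was 34.8, 31.5, 31.0 and 25.1 CPM in wild type replicates 1 to 4 and 39.1, 39.1, 41.9 and 48.3 CPM in EoE33 replicates 1 to 4. The groups did not overlap, but the change was the smallest of the 6 that passed. The mean rose from 30.6 ± 4.04 to 42.1 ± 4.33 CPM (SD, n = 4 each), a log2 fold change of 0.46 with an SE of 0.11, or 1.38-fold (edgeR, adjusted p = 0.00524). Its paralog Bcl11a rose too, from 10.8 ± 0.961 to 17.8 ± 0.497 CPM (log2 fold change 0.72, edgeR adjusted p = 8.50e-05). Basal keratinocyte markers moved with both: 6 of 8 rose and 2 fell (1 without wild type replicate 2), and their summed level was 4078 to 5614 CPM in wild type and 16626 to 20391 CPM in EoE33. Per 1000 CPM of that sum, Bcl11b stood at 5.53 to 7.32 CPM for wild type libraries and 1.92 to 2.52 for EoE33 libraries. Krt5 and Krt14 were most of the EoE33 sum, at means of 7391 and 8516 CPM, against 1884 and 512 for wild type. The log2 fold change of Krt14 was 4.06, while the median over the 8 markers was 1.18. The lower ratio in EoE33 therefore rests largely on these keratins, and whether Bcl11b fell relative to the other basal markers was not tested. The part of keratinocytes in the rise of Bcl11b was not tested.

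Id2 encodes an inhibitor of E proteins that all innate lymphoid lineages need, and lies at chr12:25093799-25097140 on the minus strand. Its level was 19.8, 14.9, 18.5 and 18.7 CPM in wild type replicates 1 to 4 and 13.9, 19.5, 16.4 and 18.2 CPM in EoE33 replicates 1 to 4. The groups overlapped over nearly their whole range. Means were 18.0 ± 2.14 and 17.0 ± 2.44 CPM (SD, n = 4 each), a log2 fold change of −0.08 with a 95% interval of −0.37 to 0.21 (edgeR, adjusted p = 0.600), which was 0.01 without EoE33 replicate 1. The E protein genes whose products ID2 binds differed among themselves: Tcf3 rose (log2 fold change 0.56, edgeR adjusted p = 4.80e-05), Tcf4 fell (−0.56, adjusted p = 0.000205), and Tcf12 was at 71.7 ± 1.96 and 76.8 ± 6.43 CPM and did not pass (0.10, adjusted p = 0.239). Of the other inhibitors of this family, Id4 fell from 12.1 ± 0.729 to 4.05 ± 2.55 CPM (log2 fold change −1.57, edgeR adjusted p = 0.0127), but did not pass with no low-count filter (−1.55, adjusted p = 0.0515) or with wild type replicates 2 and 4 as the only controls (−1.52, adjusted p = 0.0732). Id1 (0.26, edgeR adjusted p = 0.167) passed only without EoE33 replicate 1 (0.41, adjusted p = 0.00228), among the fits without one library. Id3 (−0.20, edgeR adjusted p = 0.0526) passed without wild type replicate 2 (adjusted p = 0.0309) or EoE33 replicate 2 (adjusted p = 0.0436). With no library left out, Id3 passed in edgeR with robust = FALSE (adjusted p = 0.0498) and with a filter of a mean of at least 1 CPM (adjusted p = 0.0426). Of the 7 paralogs of the 10 genes that were tested, out of 9, 1 was higher and 3 were lower, against 31.3% and 32.1% of all genes tested. Those higher numbered 2 without EoE33 replicate 1.

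Thy1, a surface glycoprotein of ILC2 and T cells that neurons and fibroblasts also carry, lies at chr9:44043384-44048579 on the plus strand. Its level was 32.0, 28.9, 33.6 and 29.2 CPM in wild type replicates 1 to 4 and 17.6, 18.3, 20.2 and 17.5 CPM in EoE33 replicates 1 to 4. The groups were well separated, and the SE of the log2 fold change was the smallest of the 10 genes. The mean fell from 30.9 ± 2.26 to 18.4 ± 1.25 CPM (SD, n = 4 each), a log2 fold change of −0.75 with an SE of 0.08, or 1.68-fold lower (edgeR, adjusted p = 4.36e-05). Fibroblast markers moved with Thy1: 6 of 9 fell and 1 rose, with a summed level of 4100 to 5035 CPM in wild type and 2276 to 3306 CPM in EoE33. Of the neuron and Schwann cell markers, 7 of 10 tested fell and 0 rose (1 without EoE33 replicate 2), with a summed level of 57.1 to 114 CPM in wild type and 24.3 to 53.1 CPM in EoE33. Per 1000 CPM of the fibroblast sum, Thy1 stood at 5.80 to 7.84 CPM in wild type and 5.40 to 7.75 CPM in EoE33, and per 1000 CPM of the neuron and Schwann cell sum at 296 to 507 and 332 to 752 CPM. On both scales the groups overlapped. The part of these tissues in the fall of Thy1 was not tested.

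The promoters of Il17rb, Rora and Il5 are shown because these genes rose, fell and did not pass the test, respectively. Each is the stretch of 250 bases upstream of the RefSeq start (GRCm38.p6), read 5′ to 3′ on the strand of the gene. Capitals mark GATA motifs (the letters GATA after an A or T and before an A or G, on either strand), the sequence bound by GATA3 and its paralogs, and E-boxes (CANNTG), the sequence bound by the E proteins that ID2 inhibits. The letters of the motifs searched do not overlap in these windows.
Il17rb, chr14:30008897-30009146, minus strand: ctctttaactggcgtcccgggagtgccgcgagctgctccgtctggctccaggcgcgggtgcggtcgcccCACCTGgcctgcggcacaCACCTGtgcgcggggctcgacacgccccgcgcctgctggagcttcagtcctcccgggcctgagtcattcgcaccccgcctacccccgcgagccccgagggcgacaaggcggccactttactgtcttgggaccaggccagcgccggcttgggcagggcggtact
Rora, chr9:68653536-68653785, plus strand: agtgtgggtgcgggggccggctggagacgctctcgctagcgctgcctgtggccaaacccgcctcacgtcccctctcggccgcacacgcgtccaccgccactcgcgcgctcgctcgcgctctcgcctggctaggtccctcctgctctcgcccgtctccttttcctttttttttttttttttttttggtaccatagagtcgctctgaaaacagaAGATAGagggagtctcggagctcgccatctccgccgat
Il5, chr11:53720544-53720793, plus strand: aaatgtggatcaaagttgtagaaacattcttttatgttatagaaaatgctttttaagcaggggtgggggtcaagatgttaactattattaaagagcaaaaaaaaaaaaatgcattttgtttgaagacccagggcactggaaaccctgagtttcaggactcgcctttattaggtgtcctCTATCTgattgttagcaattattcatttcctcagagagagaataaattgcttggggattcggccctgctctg
Il17rb held E-boxes that began 181 and 163 bases upstream of the start, and Rora a GATA motif that began 38 bases upstream. Il5 held a GATA motif on the other strand, 72 bases upstream. RefSeq promoters were matched for 8 of the 10 genes, and of these 2 held a GATA motif (Rora and Il5) and 3 an E-box (Il7r, Il17rb and Id2). By GENCODE, the windows of Il7r, Bcl11b and Id2 lay partly in exons of their gene, with 86, 188 and 161 of 250 bases. That of Gata3 lay inside the annotated gene. Among all 32851 promoters of that length, 26.5% held a GATA motif and 66.2% an E-box. A match in the letters is a description and not a binding site.

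Levels can be ranked between genes only per length, in CPM per kb of exon. In wild type, Thy1 was highest at 10.3 CPM per kb, followed by Rora at 8.64, Id2 at 7.37 and Bcl11b at 3.77. The ranges of Rora and Id2 overlapped, while those of Thy1 and Rora, of Id2 and Bcl11b, and of Bcl11b and the next gene did not. The other 6 genes lay far lower, from Il5 at 0.564 to Klrg1 at 0.105 CPM per kb, and no neighbours among them were separated. In EoE33 the order began with Id2 at 6.97, Thy1 at 6.15 and Bcl11b at 5.19 CPM per kb, whose ranges overlapped, and went on with Rora at 2.66, separated from Bcl11b. Next came Il7r at 1.86, separated from Rora, then Il17rb at 1.51, whose range of 0.785 to 3.26 overlapped both Il7r and Rora, then Klrg1 at 1.42, which overlapped Il7r and Il17rb, and then Il5, Il2ra and Gata3 between 0.553 and 0.382. Klrg1 thus moved from the last to the seventh place, and Rora from the second to the fourth. Among all genes tested, the mean level of Klrg1 per kb exceeded that of 2.19% of genes in wild type and 29.2% in EoE33, and that of Rora 70.3% and 41.6%.

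The pan-leukocyte transcript was itself higher in EoE33. Ptprc, which encodes the pan-leukocyte surface phosphatase CD45, was at 22.8 ± 9.26 CPM in wild type against 58.9 ± 9.60 CPM in EoE33 (SD, n = 4 each), and the edgeR log2 fold change was 1.37 at an adjusted p of 0.00284. Against 100 counts of Ptprc, Klrg1 rose from 0.708 ± 0.497 to 3.47 ± 1.06 counts, and Il7r from 8.15 ± 1.31 to 15.1 ± 3.32 counts (SD, n = 4 each). Taken from the difference of mean log2 ratios, with 0.5 added to each count, these rises were 4.78-fold and 1.82-fold. Per 100 Ptprc counts 5 genes fell: Rora from 569 to 61.3 counts, Thy1 from 153 to 31.6, Id2 from 87.8 to 29.4, Il5 from 3.98 to 1.45, and Il2ra from 9.16 to 5.14. Each of these 7 had the smallest p that 70 orderings of the samples allow, 0.0286 in a two-sided exact permutation test, or 0.0408 adjusted over the 10 genes. Gata3 (adjusted p = 0.222), Bcl11b (0.107) and Il17rb (0.714) did not pass this exact test, and the log2 ratio of Il17rb turned from 0.24 to −0.21 without EoE33 replicate 2. Without any 1 library the smallest p is 0.0571, so no gene could pass. With Cd3e, which had only 2 counts in EoE33 replicate 2, in place of Ptprc, none of the 10 passed, while the log2 ratios were 3.50 for Klrg1 (2.26 with Ptprc), 2.10 for Il7r (0.86 with Ptprc) and −1.92 for Rora (−3.16 with Ptprc). Rora, Thy1, Bcl11b and Id2 are also expressed outside leukocytes, so for them the ratio to Ptprc is not a level per leukocyte. All 10 ratios share Ptprc, whose CPM did not overlap between the groups, so the 7 calls are not separate results. A gene with the same CPM in both groups falls on this scale. Il5, Id2 and Il2ra fell here, although their log2 fold changes in CPM were −0.03, −0.08 and 0.64 and did not pass in edgeR.

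**Figure D3:**
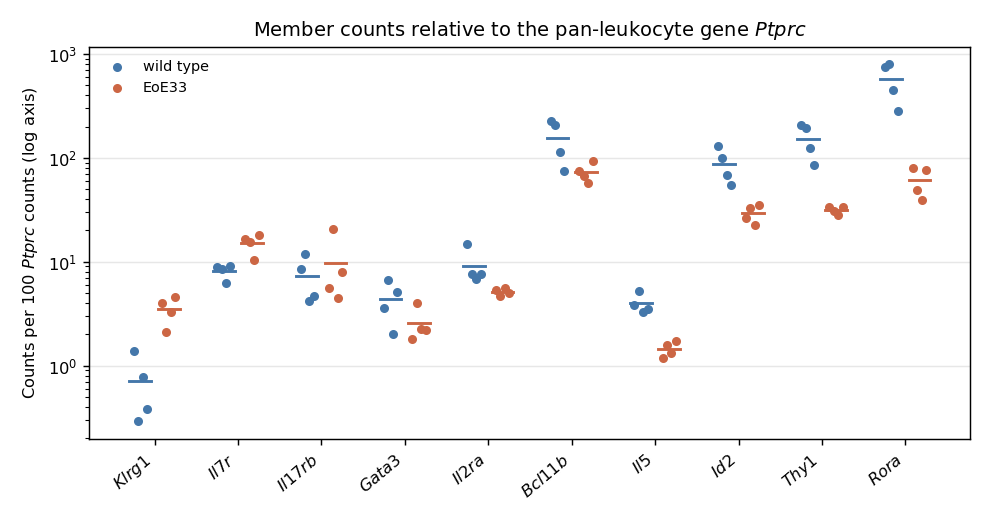
Counts of each of the 10 genes per 100 Ptprc counts in each library, on a log axis, with 1 point per mouse and a line at each group mean, n = 4 per group. Klrg1 (0.292 to 1.38 in wild type, 2.08 to 4.53 in EoE33) and Il7r (6.23 to 9.09 and 10.4 to 18.0) lie higher in all EoE33 libraries, and Rora, Thy1, Id2, Il5 and Il2ra lie lower.

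Other genes of ILC2 and Th2 cells were set beside the 10 genes. Of 30 genes on this list 26 were tested, with a median log2 fold change of 0.53. Of the 26, 14 were higher and 7 lower, against 31.3% and 32.1% of all genes tested. Higher were the receptor and surface genes Il1rl1, Icos, Ccr4, Ccr8, Cysltr1, Nmur1, Il9r and Tnfrsf18, the effector genes Il13, Areg and Hpgds, and the factors Nfil3, Ets1 and Irf4. Lower were Tnfrsf25, Zbtb16, Maf, Stat5a, Stat5b, Bhlhe41 and Pparg, and Il4, Il18r1, Tcf7, Tox and Stat6 did not pass.

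Il13, the cytokine gene next to Il4 that acts on epithelium, had 4 counts in the wild type group against 193 in EoE33. Its level was 0.0435 ± 0.0621 and 2.33 ± 0.908 CPM (log2 fold change 5.59, edgeR adjusted p = 6.17e-05, and 6.89 without wild type replicate 2). Il4 was at 1.12 ± 0.201 and 1.07 ± 0.381 CPM and did not pass (log2 fold change −0.06, edgeR adjusted p = 0.856), and its sign turned without wild type replicate 2 or 3 or EoE33 replicate 1, 2 or 4, to between 0.01 and 0.03. Of these 3 cytokine genes of type 2 lymphocytes, Il13 rose, while Il4 and Il5 did not pass. Areg, the growth factor amphiregulin made by ILC2 and by epithelium, rose from 1.43 ± 0.184 to 33.5 ± 12.1 CPM (log2 fold change 4.54, edgeR adjusted p = 4.41e-06). Hpgds, the prostaglandin D2 synthase of type 2 lymphocytes and mast cells, rose from 2.22 ± 0.461 to 33.7 ± 6.85 CPM (3.92, edgeR adjusted p = 9.23e-07).

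Among surface genes, Il1rl1 rose from 5.26 ± 2.14 to 18.2 ± 11.2 CPM (log2 fold change 1.79, edgeR adjusted p = 0.00823), a call that was lost with wild type replicates 2 and 4 as the only controls (1.47, adjusted p = 0.0822). Icos, a costimulatory receptor of ILC2 and T cells, rose from 0.557 ± 0.373 to 5.76 ± 1.24 CPM (3.36, adjusted p = 6.39e-05). Ccr8, a chemokine receptor of Th2 cells, had 3 counts in the wild type group against 61 in EoE33, a depth-scaled ratio of 23.4 (exact 95% interval 7.63 to 116). In edgeR its log2 fold change moved from 4.33 to 5.23 when wild type replicate 1 was left out, which held 2 of those 3 counts. Nmur1, the neuromedin U receptor that marks ILC2, had 4 counts in the wild type group against 80 in EoE33 (log2 fold change 4.39, edgeR adjusted p = 0.000143). These receptors rose with Klrg1 and Il7r. Among the factors, Zbtb16, which marks ILC precursors and is also expressed in muscle, fell from 78.3 ± 13.7 to 19.8 ± 9.85 CPM (log2 fold change −1.99, edgeR adjusted p = 0.00232), and Bhlhe41 from 29.5 ± 2.54 to 7.80 ± 2.31 CPM (−1.91, adjusted p = 3.09e-05), as Rora did.

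**Figure D4:**
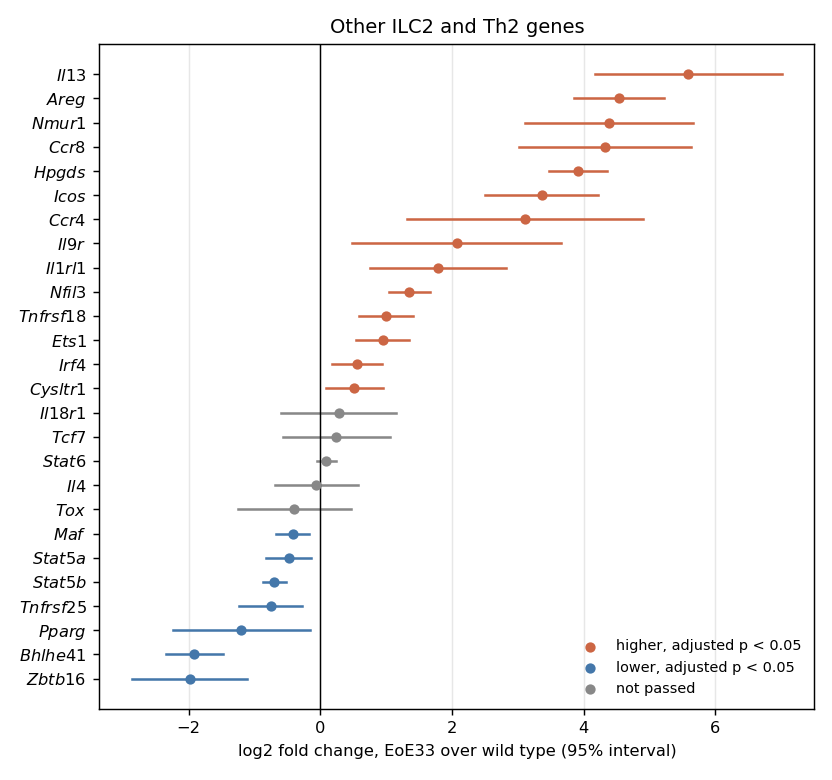
Log2 fold change (EoE33 over wild type, 4 mice each) of the tested other ILC2 and Th2 genes, with bars for the 95% interval and colours for the call. Il13 (5.59), Areg (4.54) and Nmur1 (4.39) lie farthest to the right, and Zbtb16 (−1.99) and Bhlhe41 (−1.91) farthest to the left.

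Markers of other cells that carry the 10 genes were read in the same libraries. T cell markers summed to 21.9 to 39.95 CPM in wild type and 41.3 to 57.2 CPM in EoE33, and none of the 18 was at 0 in all libraries of a group. Of 17 tested, 7 were higher and 0 lower, against 31.3% and 32.1% of all genes tested. The count of higher T cell markers was 13 without wild type replicate 4 and 4 without wild type replicate 1. It was 1 with only wild type replicates 2 and 4 as controls. Cd3g rose (log2 fold change 2.13, edgeR adjusted p = 0.0108, and 3.35 without wild type replicate 4, but 1.46 at an adjusted p of 0.0704 with wild type replicates 2 and 4 as the only controls), while Cd3e (0.49, adjusted p = 0.499) and Cd4 (1.67, adjusted p = 0.0537) did not pass, and Cd4 passed without wild type replicate 4 (3.04, adjusted p = 8.24e-05). Per 1000 CPM of the T cell sum, Klrg1 stood at 1.87 to 9.69 CPM in wild type and 29.7 to 45.9 CPM in EoE33, and Il7r at 54.2 to 77.1 and 146 to 219 CPM. Klrg1 and Il7r thus lay higher in EoE33 also relative to this sum, with no overlap. Cd5 was the largest part of the sum, at means of 14.6 (wild type) and 19.4 CPM (EoE33). Its log2 fold change was only 0.41, while the median over the 17 tested T cell markers was 1.11. The ratios therefore rest largely on Cd5, and whether Klrg1 and Il7r rose beyond the other T cell markers was not tested.

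NK cell and ILC1 markers, which can accompany Klrg1, summed to 2.11 to 4.53 CPM in wild type and 5.84 to 6.16 CPM in EoE33. Only 3 of 10 passed the filter, of which Gzmb (3 and 114 counts, a depth-scaled ratio of 43.7 with an exact 95% interval of 14.6 to 215) and Klrd1 were higher, and 1 of them without wild type replicate 1, EoE33 replicate 1 or EoE33 replicate 3. Below the filter, Tbx21 (42 counts in wild type and 15 in EoE33), Ncr1 (13 and 5) and Klrb1c (20 and 16) had fewer counts in EoE33. Eomes (5 and 18), Prf1 (16 and 17), Gzma (15 and 40) and Nkg7 (37 and 50) had more. Regulatory T cell markers, which can accompany Il2ra, Gata3 and Klrg1, summed to 19.5 to 25.6 CPM in wild type and 74.6 to 91.3 CPM in EoE33, with 3 of 4 tested higher: Foxp3 (log2 fold change 1.12), Ctla4 (2.05) and Ikzf2 (2.04), edgeR adjusted p = 0.00230, 0.000574 and 1.62e-06. Most of that sum was Ikzf2, at 18.2 ± 2.55 and 74.9 ± 8.13 CPM. The ILC3 and Th17 list summed to 52.5 to 57.6 CPM and 90.1 to 154 CPM, with Ahr and Il1r1 higher among 3 tested of 7. That count was 1 without wild type replicate 2, 3 or 4 or EoE33 replicate 1. Nearly all of the sum of this list was Ahr and Il1r1. Mean levels were 28.7 (wild type) against 36.6 CPM (EoE33) for Ahr, and 26.0 against 74.9 CPM for Il1r1. The gap between the sums therefore rests on these genes and is not a measure of the other genes listed. Of the cytokine genes on this list, Il17a, Il17f and Il22 had no counts in wild type, and Il22 had none in EoE33. Thymocyte markers, another setting of Bcl11b and Thy1, summed to 7.01 to 20.9 CPM and 5.73 to 9.92 CPM, with 0 of 2 tested called in edgeR. The only one of the 2 with an unadjusted p under 0.05 was Cd1d1 (log2 fold change −1.31, edgeR adjusted p = 0.0553), and 1 of the 2 was lower without wild type replicate 2 or 3, and also with DESeq2. Rag2 was at 0 in all 8 libraries and Ptcra at 0 in EoE33. The part of these cells in the changes of the 10 genes was not tested.

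Myeloid and mast cell markers were higher as well, where 31.3% of all genes tested were higher and 32.1% lower. Mast cell and basophil markers summed to 19.5 to 71.5 CPM in wild type and 101 to 173 CPM in EoE33, with 5 of 8 tested higher, a count of 3 without wild type replicate 1, 2 or 3 or EoE33 replicate 3 or 4. Mcpt8, the basophil marker, had no counts in wild type. Macrophage and dendritic cell markers summed to 122 to 206 CPM and 260 to 331 CPM, with 8 of 9 higher, or 5 without wild type replicate 1. Of the other tissue, suprabasal keratinocyte markers summed to 63372 to 104244 CPM in wild type and 22433 to 45071 CPM in EoE33, with 8 of 10 lower and 1 higher. Endothelial markers overlapped at 277 to 382 and 272 to 303 CPM, with 4 of 7 lower and 1 higher. Smooth muscle markers summed to 3335 to 6875 and 2147 to 2406 CPM, with 4 of 7 lower. This count was 7 without wild type replicate 3, and 2 without wild type replicate 1, wild type replicate 4 or any 1 EoE33 library. Des was the largest part of the smooth muscle sum, with a mean of 2692 CPM for wild type against 964 for EoE33. Of the 7 genes, only Des had groups that did not overlap, so the gap between these sums rests largely on Des.

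**Figure D5:**
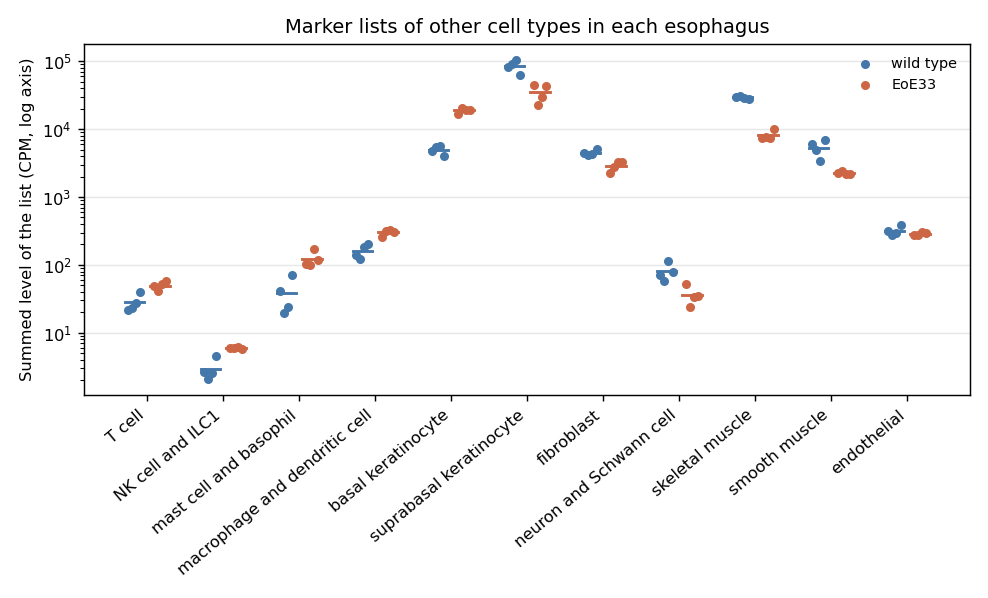
Summed level of marker lists of other cell types in each library, in CPM on a log axis, with 1 point per mouse and a line at each group mean, n = 4 per group. T cell markers (21.9 to 39.95 CPM in wild type, 41.3 to 57.2 CPM in EoE33) and basal keratinocyte markers lie higher in EoE33, and skeletal muscle and suprabasal keratinocyte markers lie lower.

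Beyond the difference between groups, each of the 10 genes also varied among the mice of a group. Deviations of log2 CPM from the group means were compared over the 8 libraries with those of 136 tested genes on the other lists, and the gene of highest Pearson r is given as a description. For Gata3 and Il17rb it was Il1rl1 in both cases, with r of 0.895 and 0.832. For Il7r it was the T cell gene Lat (0.955), for Klrg1 Tubb3 (0.948), for Il5 Nfil3 (0.923), and for Rora Krt15 (0.955). For Bcl11b it was Actn3 (0.898), for Il2ra Gata6 (0.887), for Thy1 Ikzf2 (0.856) and for Id2 its paralog Id3 (0.796). The points share their libraries and depth, and the genes named are the highest of many compared.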

How the data were processed

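The authors deposited raw counts per gene for 8 libraries, 4 wild type and 4 EoE33. Per the submitters' processing notes, the build was GRCm38 and the tools included STAR 2.5.2b, Subread 1.5.2, featureCounts and Trimmomatic 0.36. Not given in the sources used here were the annotation release and the use of strand, so reads of overlapping genes on opposite strands may not be separated. Columns were assigned to mice by the spreadsheet letter in each sample's description. GENCODE M21 gave symbols and positions for 49056 of 49315 identifiers.

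Genes were filtered with filterByExpr (16760 left) and scaled by TMM. EoE33 was compared with wild type by edgeR 4.0.16 (glmQLFit with robust = TRUE, glmQLFTest) in R 4.3.3, with Benjamini-Hochberg adjustment over all genes tested and a threshold of 0.05. CPM were computed here from the deposited counts with TMM-scaled sizes. Standard errors were derived from the F statistic, with a median of 0.37 for genes under 1 CPM and 0.10 from 10 to 100 CPM. A level of 3 counts in a library corresponded to 0.127 to 0.175 CPM. Ratios to Ptprc were tested with an exact permutation test on the log2 scale with 0.5 added to each count. Both procedures were tested on simulated data. Intervals of count ratios hold for counting error alone, because no molecular identifiers are named in the labels and reads can be copies of a molecule.

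The members and all 18 lists set beside them (partners, paralogs, other ILC2 and Th2 genes and cell markers) were chosen with earlier results of these data known. A gene of the paralog list is not reported here and was left out of its counts. Named were the 10 genes, up to 4 genes of smallest p of a list, genes needed to account for a count of partners, paralogs or other ILC2 and Th2 genes, the gene most like each of the 10, and genes whose exons overlap one. Il33, Alb and Scgb1a1 were named as checks of the libraries, and Il4, Cd3e, Cd4 and genes at 0 after their values were seen. Also named outside this rule were Cd5 and the NK cell and ILC1 markers below the filter. Replicate numbers were not taken as pairs, because the labels name no pairing. Deviations of same-numbered libraries from their group means correlated between −0.128 and 0.124, which cannot exclude shared litters or batches. Pairs of libraries of a group differed by more than sampling noise, with chi-square over its degrees of freedom from 10.38 to 70.1. Alternatives were DESeq2 1.42.0, limma-voom (limma 3.58.1), other scalings and filters, robust = FALSE, the replicate number or the muscle level as a term, stricter thresholds, a prior count of 2 or Cd3e for the ratios, and leaving out libraries. The labels give no batch.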

Additional observations from a re-analysis of the deposited data

Results flagged for a closer look

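Within groups of 4 libraries, 1 library lay far from the other 3 for 3 of the 10 genes, all in EoE33, where its gap to the nearest library took most of the range of the group, above the 95% critical value of Dixon's test. Il17rb was at 12.1 CPM in EoE33 replicate 2, with 2.91 to 4.14 CPM in the others, and the gap took 0.866 of the range. Il2ra was at 4.01 CPM in EoE33 replicate 3, with 2.59 to 2.81 CPM in the others (0.845). Il5 was at 0.620 CPM, from 13 counts, in EoE33 replicate 1, with 0.898 to 0.948 CPM in the others (0.847). In all, 20 such groups were examined, and chance alone gives about 1 in 20.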

How the results depend on the processing

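Klrg1, Il7r, Rora, Thy1 and Bcl11b kept their call and direction in every fit run except the one with the skeletal muscle level as a term, as did Il17rb except in that fit and with only wild type replicates 2 and 4 as controls. In that last fit 3 members were higher and 2 lower. The sum of the skeletal muscle markers does not overlap between the groups, so with it as a term genotype can hardly be separated: 0 members were higher and 0 lower, and 1 of all genes was higher and 0 lower in edgeR. Signs then turned for Il2ra (−1.41), Gata3 (−2.10), Id2 (0.57), Il2rg (−1.66), Tcf3 (−0.049), Tslp (−2.45), Tcf12 (−0.20), Gata4 (0.44), Gata2 (0.020), Il1rl1 (−1.45), Zbtb16 (2.78), Cd3e (−2.32), Cd4 (−1.65) and Ptprc (−0.98). With wild type replicates 2 and 4 only, Id2 was at 0.0087 and Tslp at −0.10. A minimum absolute log2 fold change of 1 left 3 members higher and 1 lower, and 2057 and 2496 of all genes.

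Without one library at a time, 4 to 6 members were higher and 2 to 2 lower, and of all genes 4825 to 5160 were higher and 4880 to 5333 lower. Signs turned within the ranges of Il5 (−0.18 to 0.16), Id2 (−0.15 to 0.0069), Il7 (−0.45 to 0.052), Tslp (−0.063 to 0.32), Gata2 (−0.20 to 0.060), Il4 (−0.35 to 0.03) and the log2 ratio of Il17rb to Ptprc (−0.21 to 0.52). Calls on the ratios to Ptprc numbered 7, and 0 without any 1 library (0 to 0) or with wild type replicates 2 and 4 only, where no p under 0.05 can be reached. They numbered 0 with Cd3e as the reference, where Il2ra (0.47), Gata3 (0.54) and Bcl11b (0.26) turned sign. Il5 gave no value under the filter of a mean of at least 1 CPM.

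With the replicate number as a block, 4 members were higher and 2 lower, and 4936 and 5120 of all genes. Il2rb (1.59, adjusted p = 0.0345) and Cd4 (2.13, adjusted p = 0.0344) passed under this block, as they did with DESeq2 and limma-voom. Same-numbered libraries correlated at 0.124, −0.125, 0.056 and −0.128, and 1 of the 4 wild type libraries correlated best with its own number. These values do not decide whether the numbers mark pairs. Of the list counts, that of T cell markers was 11 with limma-voom and 3 at an adjusted p of 0.01, and those of the smaller lists moved by over 1.5 times under several settings. Klrg1, Gata3 and Il5 rest on few counts, 14, 89 and 81 in wild type, with 95% intervals of −0.31 to 1.63 for Gata3 and −0.65 to 0.59 for Il5.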
